A study of Mus musculus with 6 samples.

Results

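The Nr4a orphan nuclear receptors are 3 genes, Nr4a1, Nr4a2 and Nr4a3, among the 52550 mouse genes of the table. They were picked by symbol, and they were chosen with their group totals already known, so the difference between genotypes in these genes is given as a description with no test. RNA came from skeletal muscle of male mice, 3 FLExDUX4 and 3 wild-type (WT) by the sample labels, which the series' design text calls littermates. FLExDUX4 mice are hemizygous for a human DUX4 transgene that sits inverted in the Rosa26 locus and is transcribed at a low, leaky level without Cre. WT littermates lack the transgene. The labels give the muscle as quadriceps and the age as 13 weeks, whereas the methods of the study describe triceps and an age of 2 months. DUX4 itself was not analysed here, so the genotype labels were not checked against the transgene. The libraries were QuantSeq 3′ mRNA libraries, which give about 1 read per transcript, so that counts of different genes were compared without dividing by length.

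Nr4a1 (also called Nur77), Nr4a2 (Nurr1) and Nr4a3 (Nor1) are transcription factors of the nuclear receptor family with no known physiological ligand, which bind DNA alone at the NBRE element, as dimers, or, for Nr4a1 and Nr4a2, together with a retinoid X receptor. They are immediate early genes: their transcription starts within minutes of a stimulus, without new protein synthesis, and their mRNAs are short-lived. In skeletal muscle they are induced by β-adrenergic signaling through cyclic AMP, protein kinase A and CREB, and by exercise, and they act on genes of glucose and fatty acid use.

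The promoters are shown because CREB sites close to the start are a well known control element of these genes. RefSeq promoter sequences on GRCm38.p6 were searched on both strands for TGACG, the core of the cyclic AMP response element, over the 250 bases before the RefSeq start. Capitals mark the sites, which read CGTCA where they lie on the opposite strand. Nr4a1 and Nr4a2 are printed over all 250 bases, and Nr4a3 over 98 bases, up to the first base of its annotated transcript.
Nr4a1 (chr15:101266596-101266845, plus strand): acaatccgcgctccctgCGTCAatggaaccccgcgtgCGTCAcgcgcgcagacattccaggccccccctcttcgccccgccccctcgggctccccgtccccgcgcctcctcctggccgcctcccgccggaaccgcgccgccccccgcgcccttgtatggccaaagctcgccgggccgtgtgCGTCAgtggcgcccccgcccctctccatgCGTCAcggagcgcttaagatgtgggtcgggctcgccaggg
Nr4a2 (chr2:57124004-57124253, minus strand): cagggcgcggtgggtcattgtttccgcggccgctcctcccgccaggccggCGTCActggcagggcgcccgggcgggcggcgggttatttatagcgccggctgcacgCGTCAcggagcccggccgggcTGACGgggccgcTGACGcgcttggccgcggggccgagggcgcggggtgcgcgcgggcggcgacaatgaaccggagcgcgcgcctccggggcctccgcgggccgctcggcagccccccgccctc
Nr4a3 (chr4:48045055-48045152, plus strand): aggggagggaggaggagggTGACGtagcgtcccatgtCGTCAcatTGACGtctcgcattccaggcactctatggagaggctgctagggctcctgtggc
Each of the 3 windows held 4 TGACG sites, a number that 45 of the 32817 promoters of the RefSeq table reached or passed (0.137%). At least 1 TGACG site was found in 17.7% of all promoters and at least 2 in 3.9%. In Nr4a1 all 4 sites lie on the opposite strand, with their first letters 233, 213, 69 and 40 bases before the start. In Nr4a2 they lie 200, 144, 123 and 111 bases before the start, the first 2 on the opposite strand and the last 2 on the gene's own strand. In Nr4a3, 3 of the 4 sites fall in the stretch shown, 231, 213 and 205 bases before the RefSeq start. The fourth lies 147 bases before the RefSeq start but inside the annotated transcript. None of the 3 windows held the full palindrome TGACGTCA, which 1.55% of all promoters hold, the NBRE letters AAAGGTCA (1.34%) or the AP-1 letters TGACTCA (4.46%). A TGACGTCA palindrome would also have counted as 2 TGACG sites. The windows were rich in G and C, at 74.4% for Nr4a1, 80% for Nr4a2 and 63.6% for Nr4a3 against a median of 52.4% over all promoters. These matches describe letters in the sequence and not binding.

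Each genotype is known here through 1 total per gene, the counts of its mice added together. The totals hold 13110125 counts on mouse genes in FLExDUX4 and 18367364 in WT, and 17202 and 18133 genes had at least 1 count. Levels are given as raw counts and as CPM, the counts set relative to the library total after TMM scaling, which sets the bulk of genes equal between the groups. Ratios are log2 of FLExDUX4 over WT, and 13396 genes passed the filter on low counts and were compared. ERCC and SIRV spike-in RNAs took a further 220016 counts in FLExDUX4 and 259913 in WT. Scaling by these totals in place of TMM (spike-in scaling) moves every ratio by -0.28, so that 10020 of the 13396 compared genes are lower in FLExDUX4. Small ratios depend on this choice, and signs that change with it are given beside the values. Intervals are exact 95% intervals that cover counting error only. No spread between mice enters any of them, there is no replicate check, and whether a single mouse carries a difference was not tested. A total of 3 counts or fewer was treated as at the floor, which corresponds to 0.231 CPM in FLExDUX4 and 0.162 CPM in WT.

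The tissue was checked against fixed marker lists. All 8 skeletal muscle markers were highly counted, with a summed level of 127497 CPM in FLExDUX4 and 129197 in WT. Macrophage and leukocyte markers summed to 80.5 and 83.2 CPM over 8 genes, endothelial markers to 173 and 193 CPM over 6 genes, and satellite cell markers to 37.3 and 40 CPM over 5 genes, 4 of which passed the filter, with no defining marker at 0 in either genotype. Of the compared markers, 5 of 8 macrophage and leukocyte, 4 of 6 endothelial and 3 of 4 satellite cell genes were lower in FLExDUX4. Over all compared genes 50.1% were lower. Under spike-in scaling the marker counts were 6 of 8, 5 of 6 and 3 of 4, beside 74.8% of all compared genes. With so few genes in each list, nothing is read from these counts. Pax7, the defining factor of satellite cells, had 35 counts in FLExDUX4 and 89 in WT, a log2 ratio of -0.82 (-1.44 to -0.25), while the other satellite cell markers compared were at -0.02 for Cdh15, -0.08 for Chodl and 0.34 for Myf5. In the macrophage and leukocyte list, Cd14 was lowest at -0.83, and Itgam was highest at 1.002 (0.057 to 2.002), on 24 and 17 counts. Lyz2 and Csf1r, the best counted of this list, were at -0.02 and 0.01, the latter negative under spike-in scaling. Within the endothelial list, Cldn5, a tight junction protein of vessels, had 17 counts in FLExDUX4 and 63 in WT. Its log2 ratio was -1.34 (-2.24 to -0.58). With more counts, Pecam1 was at 0.06 (-0.07 to 0.20), negative under spike-in scaling, and Cdh5 at -0.03 (-0.19 to 0.14). Tek, the angiopoietin receptor, had a ratio of -0.63, Kdr, the VEGF receptor, one of -0.56, and Vwf, the von Willebrand factor, one of 0.71, so the list did not lie on one side. In whole muscle, fewer cells of a type and less RNA per cell cannot be told apart, and the part of cell make-up in the Nr4a values was not tested.

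Of the Nr4a receptors, Nr4a2 was far lower in FLExDUX4 than in WT muscle, at 2.62 against 18.3 CPM, a 6.90-fold difference. Nr4a1, the most abundant of the family, was 1.26-fold lower, at 123 against 155 CPM. Nr4a3 was close in both genotypes, at 10.3 and 12 CPM, and its counting interval included no difference. So 1 of the 3 members was lower by 2-fold or more, where 7.43% of all compared genes were lower and 5.99% higher by that much. All 3 had over 100 counts, and among the 9300 genes with 100 or more counts these shares were 1.66% and 1.25%. The members were chosen with these values known, so nothing is read from the count. Under spike-in scaling the log2 ratios were -3.06 for Nr4a2, -0.61 for Nr4a1 and -0.50 for Nr4a3, all shifted alike, and the interval of Nr4a3 (-0.83 to -0.19) then no longer included 0.

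Nr4a1, the receptor that is best known in muscle for control of glucose handling genes, is listed on chromosome 15 at 101266846, where its transcript Nr4a1-201 runs on the plus strand to 101274795. It had 1595 counts (interval 1518 to 1675) in FLExDUX4 and 2876 (2772 to 2983) in WT. In CPM these are 123 (117 to 129) and 155 (149 to 161), so the counting intervals of the 2 totals did not overlap. The log2 ratio was -0.33 (-0.42 to -0.25). A ratio this low or lower was held by 22.1% of all compared genes. Among the 976 genes whose summed count was within 2-fold of that of Nr4a1, 30 had a ratio as low, itself included. The same count was 1 of 4126 for Nr4a2 and 1094 of 4148 for Nr4a3. Nr4a1 lay toward the low end of genes of its own depth, with a difference small beside that of Nr4a2. These ranks are a description, since the members were chosen with these totals known.

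Nr4a2, a receptor best known for its role in dopamine neurons and also expressed in muscle, lies on chromosome 2 from 57106830 to 57124003 on the minus strand. Its total was 34 counts (23.6 to 47.5) in FLExDUX4 and 340 (304.8 to 378) in WT. On the CPM scale these were 2.62 (1.81 to 3.66) and 18.3 (16.4 to 20.4), with intervals far apart. The log2 ratio was -2.79 (-3.36 to -2.29). Over all 13396 genes compared, 1.18% had a ratio as low, most of them genes with few counts. Among the 9300 genes with 100 or more counts, Nr4a2 had the lowest ratio, which is a description, since it passes this minimum only through its WT total and was chosen with these totals known. The FLExDUX4 total stood above the floor, so Nr4a2 RNA was counted in both genotypes.

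Nr4a3, which with Nr4a1 is among the genes most strongly induced in muscle by β-adrenergic agents, lies on chromosome 4 from 48045153 to 48086447 on the plus strand. Its total was 133 counts (111 to 158) in FLExDUX4 and 223 (195 to 254) in WT. In CPM the values were 10.3 (8.58 to 12.1) and 12 (10.5 to 13.7), and these intervals overlapped. The log2 ratio was -0.23 (-0.55 to 0.09), and 28.3% of all compared genes had a ratio as low. Nr4a3 and Nr4a2 had nearly the same summed counts, 356 and 374, though in FLExDUX4 alone Nr4a2 had fewer counts and a wider interval.

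**Figure D1:**
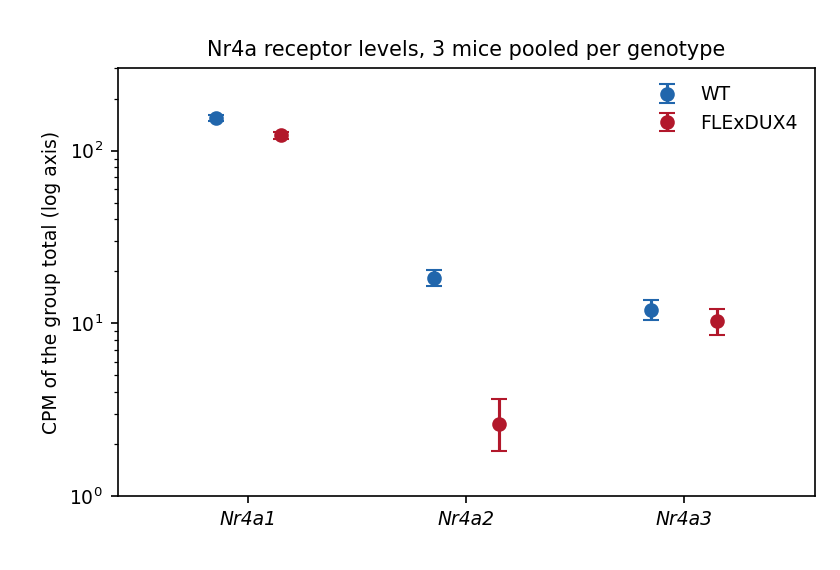
Level of each Nr4a receptor in WT (blue) and FLExDUX4 (red) muscle, in CPM of the group total on a log axis. Points are the 1 total per genotype and bars are 95% counting intervals. Nr4a2 stands at 18.3 CPM in WT and 2.62 in FLExDUX4, while the points of Nr4a1 (155 and 123) and Nr4a3 (12 and 10.3) lie close together.

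The order of levels within the family differed between the genotypes. In WT the order was Nr4a1, Nr4a2, Nr4a3, and in FLExDUX4 it was Nr4a1, Nr4a3, Nr4a2, with counting intervals of neighbours apart in both. Shares of the family's counts need no scaling between libraries, but they restate the totals with which the members were chosen. Nr4a1 made up 83.6% (82.3 to 84.9) of the 3439 family counts in WT and 90.5% (89.1 to 91.8) of the 1762 in FLExDUX4. Nr4a2 made up 9.89% (8.91 to 10.9) in WT and 1.93% (1.34 to 2.69) in FLExDUX4. Nr4a3 made up 6.48% (5.68 to 7.36) in WT and 7.55% (6.36 to 8.88) in FLExDUX4, with overlapping intervals. Put as ratios of counts, there were 8.46 (7.56 to 9.49) Nr4a1 reads for each Nr4a2 read in WT and 46.9 (33.4 to 68) in FLExDUX4. For each Nr4a2 read there were 0.656 (0.551 to 0.779) Nr4a3 reads in WT and 3.91 (2.67 to 5.88) in FLExDUX4. The ratio of Nr4a1 to Nr4a3 was 12.9 (11.3 to 14.8) in WT and 12 (10 to 14.4) in FLExDUX4, so this pair kept nearly the same proportion. The family as a whole stood at 136 CPM in FLExDUX4 and 185 in WT, a log2 ratio of -0.45 (-0.53 to -0.37), and most of those counts were Nr4a1.

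**Figure D2:**
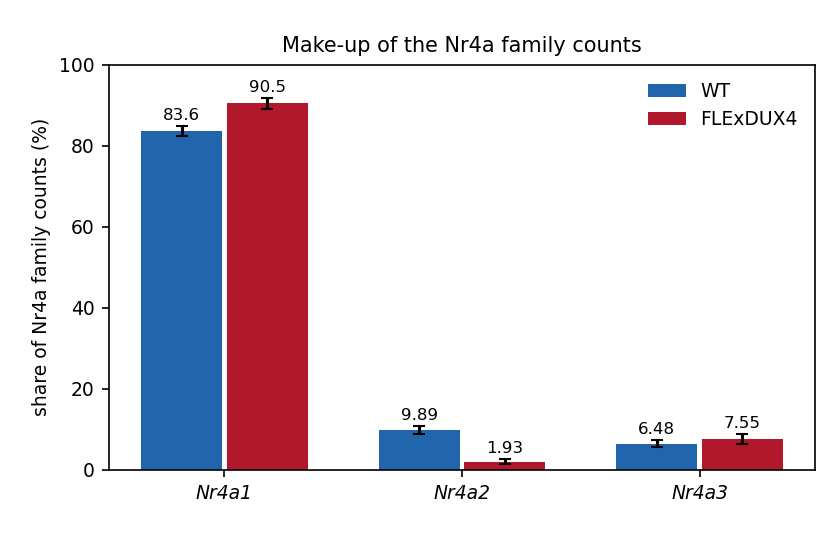
Share of the family's counts (vertical axis, percent, from 0) taken by each Nr4a receptor in WT (blue) and FLExDUX4 (red). Bars are the shares and error bars their 95% counting intervals. The Nr4a2 share is 9.89% in WT and 1.93% in FLExDUX4, and the Nr4a1 share is 83.6% and 90.5%.

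**Figure D3:**
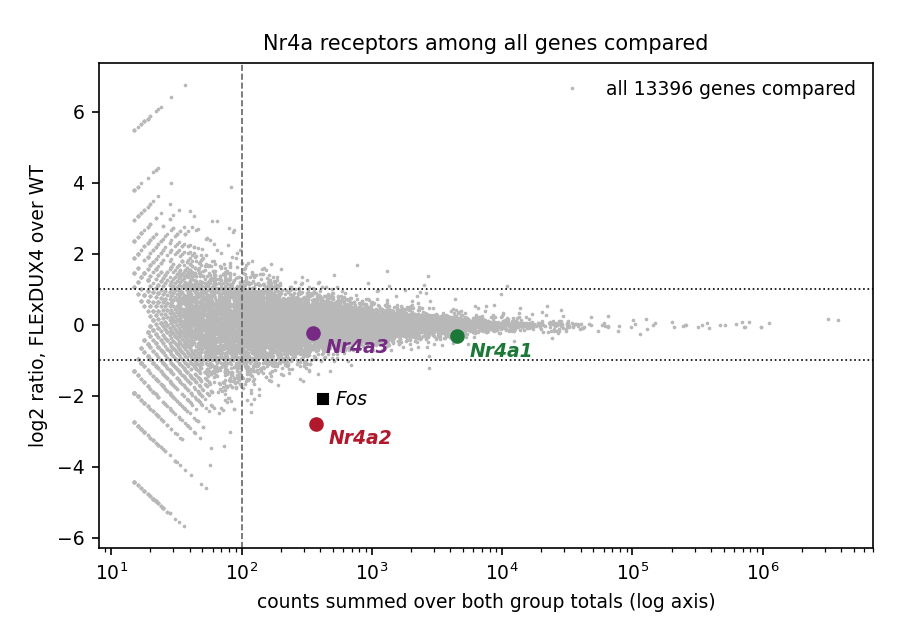
Log2 ratio of FLExDUX4 over WT (vertical axis) against the counts summed over both group totals (log axis) for the 13396 genes compared, in gray. Dotted lines mark 2-fold and the dashed line 100 counts. Nr4a2 (-2.79) lies below every other gene to the right of the dashed line, Fos (-2.10) lies above it, and Nr4a1 (-0.33) and Nr4a3 (-0.23) lie within the band of genes.

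Genes with the pattern nearest to each member were sought among genes whose summed count was within 2-fold of the member's, with the difference in log2 ratio as the measure of likeness. This measure rests on only the 2 group totals. The gene nearest to Nr4a2 was Fos, an AP-1 subunit and itself an immediate early gene, with 59 counts in FLExDUX4 and 364 in WT, and it differed from Nr4a2 by 0.69. Next came Pdcl, a phosducin-like cochaperone, with 33 and 156 counts and a ratio of -1.71, and Tead4, a transcription factor of the Hippo pathway, with 56 and 242 counts and a ratio of -1.59. Nr4a2 had the lowest ratio of the 4126 genes within 2-fold of its summed count, so its nearest genes are by construction the next lowest. For the same reason these differences were larger than those found for Nr4a1 and Nr4a3. The nearest to Nr4a1 were Slc41a3, Mapt and Samm50, with ratios from -0.34 to -0.33. The nearest to Nr4a3 were Vsir, Rrn3 and Mndal, each at -0.23.

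The genes beside each member on the chromosome did not share the low total of Nr4a2. At higher coordinates than Nr4a2, the next compared gene was Gpd2, a mitochondrial glycerol-3-phosphate dehydrogenase that starts 131 kb away, with 121 CPM in FLExDUX4 and 123 in WT and a ratio of -0.02 (-0.12 to 0.07). At lower coordinates it was Kcnj3, a potassium channel gene 1671 kb away, with only 16 and 4 counts and a ratio of 2.39 (0.88 to 4.56). Nr4a1 lay between Grasp at 0.22 and Atg101 at 0.04, and Nr4a3 between Sec61b at 0.13 and Stx17 at 0.05. The counting intervals of these last 4 ratios all included 0, and under spike-in scaling all 4 are negative. The annotation used here shows no gene that overlaps a member.

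Among the nuclear receptors as a class, the Nr4a genes were set beside 46 others. Of all 49 receptors, 38 had at least 1 count in FLExDUX4 and 38 had one in WT, not all of them the same genes. Nr4a1 ranked 2 in both genotypes, behind Rora, a clock and metabolism receptor, which had 212 CPM in FLExDUX4 and 190 in WT. Nr4a2 ranked 18 in WT and 31 in FLExDUX4, whereas Nr4a3 ranked 22 and 24. Of the 46 other receptors, 32 passed the filter and 10 had no counts at all. Of the 32, 11 were lower and 21 higher in FLExDUX4, with a median log2 ratio of 0.11, against 6711 lower and 6685 higher and a median of -0.001 over all compared genes. Under spike-in scaling 25 were lower and 7 higher. Only Esr2, the estrogen receptor β, was lower by 2-fold or more, on 2 and 16 counts, with the FLExDUX4 total at the floor. At 28 other receptors with 100 or more counts none passed 2-fold in either direction.

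Next to Nr4a2, the other receptors with 100 or more counts spanned a narrow range. The lowest were Nr2f6 at -0.42 (-0.72 to -0.12), Rxrg at -0.38 (-0.56 to -0.20) and Rarb at -0.31 (-0.67 to 0.03). The highest were Nr6a1, the germ cell nuclear factor, at 0.93 (0.40 to 1.47), Pparg, the adipogenic receptor, at 0.87 (0.34 to 1.41) and Ppara, a receptor of fatty acid oxidation, at 0.43 (0.19 to 0.67). The ratios of Nr4a1 and Nr4a3 lay inside this range and that of Nr4a2 below it, and these ratios are the values with which the members were chosen. The glucocorticoid receptor Nr3c1 was at 0.16 and Rora at 0.16, and both turn slightly negative under spike-in scaling.

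**Figure D4:**
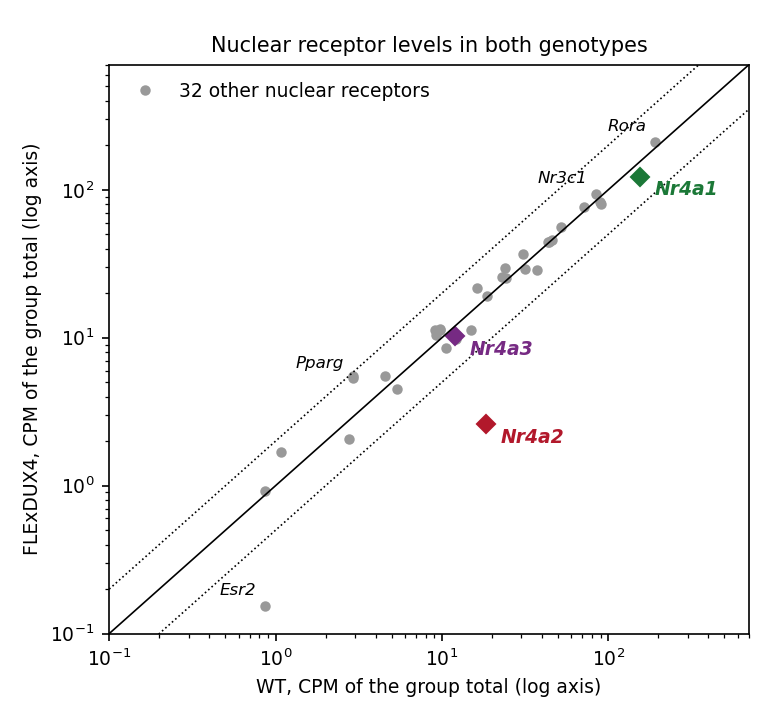
Level of the 3 Nr4a receptors (diamonds) and 32 other nuclear receptors (gray) in WT (horizontal) and FLExDUX4 (vertical) muscle, in CPM of the group totals on log axes. The solid line marks equal levels and dotted lines 2-fold. Nr4a2 (18.3 and 2.62 CPM) and Esr2 (0.862 and 0.154) lie outside the dotted lines, and the other receptors lie between them.

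The partners through which Nr4a receptors act showed no comparable difference. Of 9 genes, 3 were lower and 6 higher in FLExDUX4, none by 2-fold, with a median ratio of 0.04. Spike-in scaling put 7 lower and 2 higher. The retinoid X receptors that pair with Nr4a1 and Nr4a2 were at 0.04 for Rxra, 0.17 for Rxrb and -0.38 for Rxrg, the first 2 turning negative under spike-in scaling. The coactivator Ncoa3 was highest, at 18.9 against 12.7 CPM and 0.58 (0.31 to 0.84).

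The signaling genes upstream of Nr4a lay on both sides of 0 at the RNA level. Of 20 listed genes of the β-adrenergic, protein kinase A, CREB, Mef2 and class IIa histone deacetylase routes, 19 were compared, 9 lower and 10 higher, none by 2-fold, with a median of 0.02. With spike-in scaling 16 were lower and 3 higher. Prkaca, the main catalytic subunit of protein kinase A, stood at 99.6 and 102 CPM, and Prkacb was lower, at -0.32 (-0.48 to -0.16). Creb1 was at 0.28 (0.10 to 0.46) and its relative Atf1 at 0.31 (0.10 to 0.52). Crtc1, a CREB coactivator, had the lowest ratio, -0.47 (-0.95 to -0.01), on 59 and 117 counts. RNA levels of these genes do not show their activity, which depends on phosphorylation and location.

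Other genes that respond to CREB did not lie low with Nr4a2 as a list. Of the 12 listed, 11 were compared, with 6 lower and 5 higher in FLExDUX4, a median of -0.05, and Fos alone lower by 2-fold or more. The spike-in scale put 9 lower and 2 higher. After Fos the lowest was Junb, at -0.76 (-1.15 to -0.39). Crem, a CREB-family gene, was at -0.47 (-0.88 to -0.08), and Irs2, an insulin receptor substrate, at -0.31 (-0.51 to -0.12). On the other side, Per1, a clock gene, was at 0.71 (0.53 to 0.88) and Ppargc1a, the coactivator PGC-1α, at 0.40 (0.28 to 0.52). Pde4b and Pde4d, which break down cyclic AMP, were at -0.05 and 0.15, the latter negative under spike-in scaling. Nr4a2 and Fos were therefore low among CREB-responsive genes that lay on both sides of 0.

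The other immediate early genes were more often lower than higher in FLExDUX4. Of 30 listed, 25 were compared, 17 lower and 8 higher, so that 68% were lower against 50.1% of all compared genes, with a median of -0.24. On the spike-in scale 20 were lower and 5 higher (80%), with a median of -0.52, beside 74.8% of all compared genes and their median of -0.28. Among the 20 with 100 or more counts, 15 were lower and 5 higher, with a median of -0.36. Here Fos was lower and Ier2 higher by 2-fold. Of all compared genes with 100 or more counts, 49.6% were lower, with a median of 0.002. By 2-fold or more 1.66% of these were lower and 1.25% higher. Fos, Fosl2, Junb and Egr1 had fewer than 100 counts in FLExDUX4 and pass this minimum only through their WT totals. This list shares Fos, Junb, Dusp1, Nfil3 and Fosb with the CREB-responsive list. Fos had 4.55 CPM in FLExDUX4 and 19.6 in WT, a log2 ratio of -2.10 (-2.53 to -1.71), and was the compared early gene with the ratio nearest to that of Nr4a2. Fosl2, another AP-1 subunit, was at -0.96 (-1.32 to -0.62) and Junb at -0.76 (-1.15 to -0.39). Zfp36, which promotes decay of short-lived mRNAs, was at -0.80 (-1.42 to -0.23), and Klf2, a factor also made by endothelium, at -0.64 (-0.79 to -0.49). Egr1, the early growth response factor, was at -0.60 (-1.01 to -0.21).

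Several early genes did not follow Nr4a2. Jun, with 1228 and 2017 counts, was at -0.20 (-0.30 to -0.10), and Atf3 was at 0.05 (-0.39 to 0.48). Dusp1, a MAP kinase phosphatase, was at 0.22 (0.09 to 0.34) and Gadd45b, a growth arrest gene, at 0.30 (0.03 to 0.57). Under spike-in scaling Atf3 and Dusp1 turn negative. Ier2 had 72 counts in FLExDUX4 and 50 in WT and a ratio of 1.04 (0.50 to 1.59). With fewer counts, Maff (61 and 34), Myc (22 and 7) and Egr2 (12 and 6) were also higher by 2-fold or more, and Egr3 (7 and 30) was lower. Nr4a1 and Nr4a3 lay in the middle of the early genes, and Nr4a2 lay below all 25 that were compared. Npas4, with 0 counts in FLExDUX4 and 6 in WT, did not pass the filter.

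**Figure D5:**
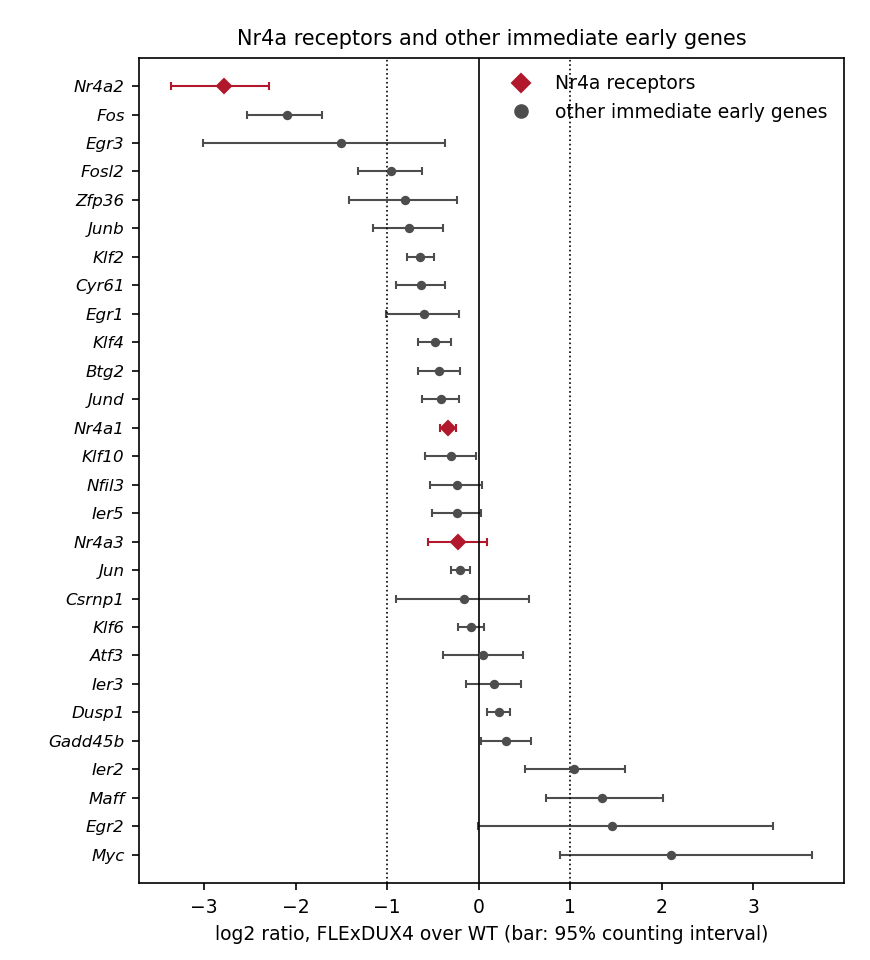
Log2 ratio of FLExDUX4 over WT (horizontal axis) with its 95% counting interval for the 3 Nr4a receptors (red diamonds) and the 25 other immediate early genes compared (gray), ordered by ratio. Dotted lines mark 2-fold. Nr4a2 (-2.79) is lowest, followed by Fos (-2.10), and the genes run up to Myc (2.10).

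The metabolic genes that Nr4a receptors are known to act on in muscle did not lie with Nr4a2. Of 13 genes, 4 were lower and 9 higher in FLExDUX4, none by 2-fold, with a median log2 ratio of 0.13, and on the spike-in scale 9 were lower and 4 higher. Pdk4, which restrains glucose oxidation, had 422 CPM in FLExDUX4 and 233 in WT, a ratio of 0.85 (0.80 to 0.91). Fbp2, the muscle fructose bisphosphatase, was at 0.41 (0.17 to 0.65) and Lpin1, a phosphatidate phosphatase, at 0.28 (0.23 to 0.34). Ppargc1b, a relative of PGC-1α, was lowest at -0.48 (-0.68 to -0.27), followed by Prkag3, an AMPK subunit of fast fibers, at -0.29 (-0.42 to -0.17), and Pgam2, the muscle phosphoglycerate mutase, at -0.19 (-0.22 to -0.16). Slc2a4, the insulin-responsive glucose transporter, was at 0.13 and Pygm, muscle glycogen phosphorylase, at 0.02, and both are negative under spike-in scaling, Pygm also with plain total counts. The genes of this list thus lay on both sides of 0, and the links between them and the Nr4a receptors were not tested.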

How the data were processed

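Libraries were made with the QuantSeq 3′ FWD kit. Per the methods and the submitters' processing notes, the authors trimmed reads with cutadapt 1.16, checked them with FastQC 0.11.7, aligned them with STAR 2.5.3a to GRCm38 joined to spike-in (ERCC and SIRV) sequences, and counted with featureCounts 1.6.2. The deposited table holds raw counts summed by the authors over each genotype, for 52649 features, 99 of them spike-ins. Its 6 columns of single libraries match no sample label by name. They were not assigned to a genotype from their values and were used in no step, so the planned edgeR quasi-likelihood test was not run. Its columns of the authors' own DESeq2 comparison (mean, fold change, standard error, statistic and p-values) were not used.

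Spike-ins were left out of library totals. The 13396 genes kept by edgeR's filterByExpr (minimum count 10, total 15) were scaled by TMM (edgeR 4.0.16, R 4.3.3). Log2 ratios used a pseudocount of 0.5. Intervals are 95%, exact Poisson for counts and CPM and Clopper-Pearson for ratios and shares (scipy 1.17.1, Python 3.11.15), and their code was tested on simulated data. Totals were also scaled and filtered in other ways. Coordinates are from GENCODE vM21 on GRCm38. RefSeq promoters were found for all 3 members. The annotated gene span of Nr4a1 begins at 101254269, before the deposited position.

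The members and gene lists were chosen with earlier results of these data known. Genes named were the members, list genes (the highest and lowest ratios at 100 or more counts, and those whose role is described), the nearest compared gene on either side, and the 3 genes nearest in ratio. Genes past 2-fold with fewer counts, and Adrb1, Npas4, Cd14, Itgam, Lyz2 and Csf1r, were named after their values were seen. Values of 2 list genes that the rule covers are not reported here.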

Additional observations from a re-analysis of the deposited data

How the results depend on the processing

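Each ratio was recomputed under 9 other settings: 5 scalings, 2 filters and 2 pseudocounts. Nr4a2 stayed between -3.06 and -2.63, Nr4a1 between -0.61 and -0.33 and Nr4a3 between -0.50 and -0.21 (log2), and in all 9 exactly 1 member was lower by 2-fold or more. With spike-in totals Nr4a1 moved to -0.61, early genes lower by 2-fold numbered 5 in place of 2, and CREB-responsive genes 2 in place of 1, while the share of all genes lower by 2-fold went from 7.43% to 11%. With no filter (19792 genes, 19.7% lower by 2-fold) these counts were 4 early genes, 2 CREB-responsive genes, 3 other nuclear receptors in place of 1, and 1 upstream gene (Adrb1, on 2 and 7 counts) in place of 0. With at least 20 counts the other nuclear receptors had 0, since Esr2 was no longer compared. No paired analysis was possible because the columns of single mice carry no replicate number. Leaving out each mouse, DESeq2 and the replicate block were not run, since these columns were not assigned to genotypes from their values, so no value here accounts for the spread between mice. The 34 counts of Nr4a2 in FLExDUX4 set the width of its interval.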
